A study of Mus musculus with 3 samples.

Results

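The cells described here were the intratumoral pmel T cells with the highest share of UMIs (unique molecular identifiers, each marking 1 captured RNA molecule) from 5 genes, Cdkn1a, Tnfsf8, Nr4a1, Trp53inp1 and Egr3. Members were chosen by a score, the summed UMIs of the 5 genes divided by all UMIs of the cell, and were the highest 10% of 28452 cells pooled from 3 libraries. This gave 2845 members and left 25607 other cells. Because members were selected on the measured values of the same cells, every difference between members and other cells is given as a description, with no test.

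The libraries came from C57BL/6 mice with B16F10 melanoma that received pmel cells, CD8 T cells with a transgenic receptor for a melanoma antigen, after irradiation, under the low dose regimen. Tumors were taken on day 18 after tumor injection, live cells positive for Thy1.1 and CD8 were sorted, and 1 library was made per treatment. The treatments were sIL-2 (super IL-2), IL-2/21-Trikine (a fusion that brings the receptors of IL-2 and IL-21 together), and sIL-2 + IL-21. Per the study's methods, cells preconditioned with sIL-2 or with sIL-2 + IL-21 were both followed by sIL-2 alone in the mice. Trikine-preconditioned cells were followed by Trikine. The 3 groups thus shared the tumor line, the pmel source of the T cells and the irradiation of the hosts, while the cytokines given before transfer and in the mice differed, and no untreated group was among them. With 1 library for each treatment, the treatment cannot be told apart from the library, and intervals cover counting error only. The number of mice pooled per library was not found in the sources used here. Where 3 values follow one another without names, they stand for sIL-2 first, IL-2/21-Trikine second and sIL-2 + IL-21 last.

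Cdkn1a encodes p21, an inhibitor of cyclin-dependent kinases that p53 induces and that halts the cell cycle, and Trp53inp1 is a further p53 target. Nr4a1 (Nur77) and Egr3 are transcription factor genes switched on soon after T cell receptor signaling, and they also restrain the response that follows. Tnfsf8 encodes CD30 ligand, a member of the TNF superfamily found on activated T cells.

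The RefSeq promoter table (build GRCm38.p6) held 3 of the 5 genes, Cdkn1a, Tnfsf8 and Nr4a1, with 4 start sites in all. The 250 bases upstream of a start are shown for Cdkn1a and Tnfsf8 because these genes gave the most score UMIs over all pooled members. A further reason was that p53 targets were among the genes that were higher in members. In the members of sIL-2 + IL-21 alone, Nr4a1 gave more UMIs than Tnfsf8, 3760 against 3696. The Cdkn1a window, chr17:29090729-29090978 on the plus strand, precedes the upstream of 2 annotated starts, 2790 bases before the other one. The Tnfsf8 window is chr4:63861285-63861534 on the minus strand. Capitals mark matches on either strand to the p53 decamer motif or to the NFAT core GGAAA.
Cdkn1a: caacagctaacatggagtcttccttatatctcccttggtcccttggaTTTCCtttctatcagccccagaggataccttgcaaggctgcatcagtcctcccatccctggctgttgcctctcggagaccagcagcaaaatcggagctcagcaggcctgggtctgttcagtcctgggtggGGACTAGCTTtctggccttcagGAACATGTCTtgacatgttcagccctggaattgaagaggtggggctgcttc
Tnfsf8: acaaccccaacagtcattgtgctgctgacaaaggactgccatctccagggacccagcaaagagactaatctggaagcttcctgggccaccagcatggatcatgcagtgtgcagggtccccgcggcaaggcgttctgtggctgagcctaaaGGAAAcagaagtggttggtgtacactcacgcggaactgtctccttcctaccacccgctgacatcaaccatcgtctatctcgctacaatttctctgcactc
The Cdkn1a window held 2 matches to the p53 decamer motif, beginning 73 and 51 bases before the start, and no matches overlapped. Of 32851 upstream windows of the same length, 7.13% held at least 1 such match and 0.259% held 2 or more. The core GGAAA was in both windows shown, and in 55.6% of all windows. The Tnfsf8 window held no match to the p53 decamer motif. The windows of the other Cdkn1a start and of Nr4a1 held no match to that motif or to GGAAA. TGACGTCA (the cyclic AMP response element, in 1.55% of all windows), TGACTCA or TGAGTCA (AP-1, 4.46%) and GCGTGGGCG (EGR, 0.536%) had no match in any of the 4 windows. A match is a description of letters only.

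Cdkn1a gave the largest share of the members' score UMIs, at 40.6%, 38.97% and 49.6% in the 3 libraries. Levels are given as CPM, the UMIs of a gene summed over the cells of a library per 1000000 summed UMIs of genes outside the score. Cdkn1a was at 1421, 1263 and 1616 CPM in members and at 286, 159 and 227 CPM in other cells. Tnfsf8 was at 970.2, 1032 and 655 CPM in members and at 235, 222 and 104 CPM in other cells. Nr4a1 was at 852, 632 and 666 CPM in members and at 239.7, 157 and 137 CPM in other cells. All 3 genes were thus present in the other cells too, with members several fold above them. The less abundant Trp53inp1 was at 131, 118 and 127 CPM in members and at 47.8, 30.7 and 24.4 CPM in other cells. Egr3 was at 130.1, 196 and 192 CPM in members and at 28.6, 22.0 and 19.7 CPM in other cells. Among other cells, each of the 5 genes was highest in sIL-2, whereas the members of sIL-2 were not the highest for Cdkn1a, Tnfsf8 or Egr3. Members held 51.3%, 27.03% and 19.9% of all Cdkn1a UMIs of their library.

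**Figure D1:**
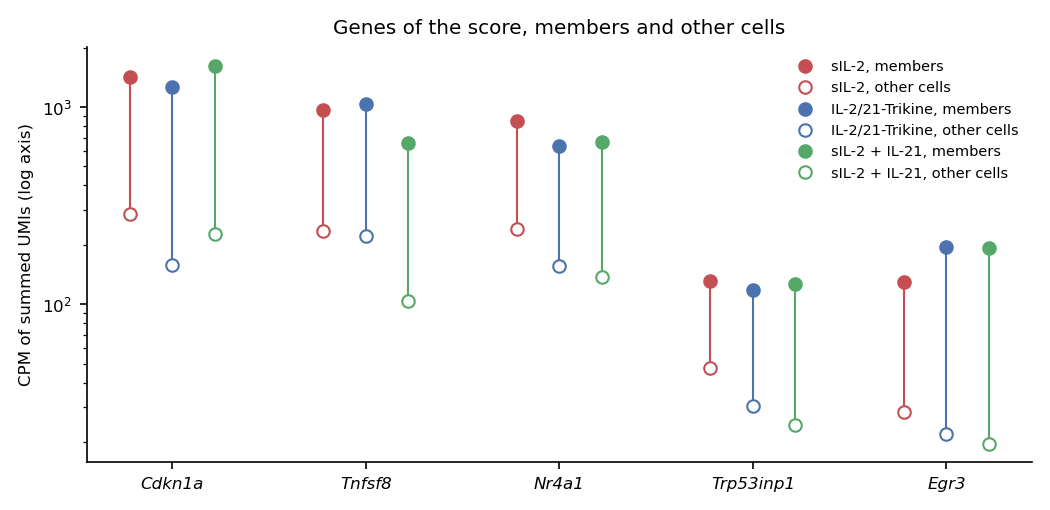
CPM of the 5 score genes on a log axis, with filled circles for members and open circles for other cells of each library. In every library members lie above other cells, since they were chosen on these genes, and Cdkn1a in members lies between 1263 and 1616 CPM.

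The members formed the upper end of a continuous range of scores. The lowest member had a score of 22.13 per 10000 UMIs and the highest other cell 22.12. A band of 10% to either side of this limit held 503 members and 555 other cells. The 100 members just inside the limit had a mean of 12.4 UMIs of Cdkn1a and 9.03 of Nr4a1 per cell, and the 100 cells just outside had 11.5 and 7.26, while all members had 17.8 and 9.76. When each cell's UMIs were split at random into 2 sets and members were chosen on the first, the log2 ratio of members over other cells for Cdkn1a was 2.36, 3.02 and 2.88 in that set and 2.19, 2.79 and 2.66 in the second. Of the cells so chosen, 85.3% were also members by all UMIs.

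Members were most frequent in sIL-2. They made up 1600 of 7494 cells there, or 21.4% (95% exact binomial interval 20.4 to 22.3%). They made up 678 of 11524 cells in IL-2/21-Trikine, or 5.88% (5.46 to 6.33%), and 567 of 9434 cells in sIL-2 + IL-21, or 6.01% (5.54 to 6.51%). The share in sIL-2 was 3.63 times that in IL-2/21-Trikine (Katz interval 3.33 to 3.95) and 3.55 times that in sIL-2 + IL-21 (3.24 to 3.89). The IL-2/21-Trikine share was 0.979 times that in sIL-2 + IL-21, with an interval of 0.879 to 1.09. The higher share in sIL-2 came with higher scores among its other cells, whose median was 7.52 per 10000 UMIs against 4.56 and 4.02. When pooled cells were divided into 10 equal groups by score, sIL-2 placed 4.90% of its cells in the lowest group and a larger share in each following one. The size of the ratios depended on the score, and with Tnfsf8 alone as the score the share in sIL-2 was 1.92 times that in IL-2/21-Trikine.

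Members were shallower than other cells in every library. The median UMIs per cell were 11520.5 in members and 14043 in other cells of sIL-2. They were 9049.5 and 11800.5 in IL-2/21-Trikine, and 8183 and 15175 in sIL-2 + IL-21. Within bands of depth, sIL-2 kept the highest share. From 5000 to 10000 UMIs, members were 26.2% of sIL-2 cells, 8.45% of IL-2/21-Trikine cells and 12.1% of sIL-2 + IL-21 cells. From 20000 to 40000 UMIs they were 14.5%, 2.59% and 1.59%. Above 40000 UMIs there were 40 members among 447 cells in sIL-2, 5 among 288 in IL-2/21-Trikine, and 0 among 504 in sIL-2 + IL-21, which allows a share of up to 0.729% by the exact interval. The share was lower in the deepest than in the shallowest band of each library. When each cell was thinned to 2000 UMIs before scoring, the shares were 20.5%, 6.21% and 6.31%. The median share of mitochondrial UMIs was 1.18%, 1.17% and 1.25% in members and 1.29%, 1.33% and 1.35% in other cells.

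**Figure D2:**
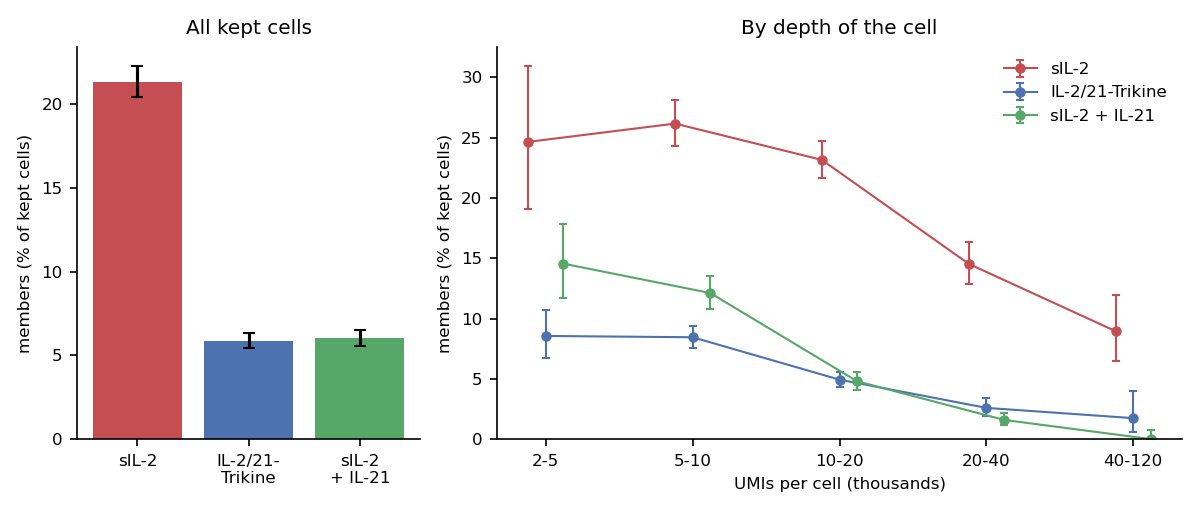
Share of kept cells that were members, in % with 95% exact binomial intervals, for each library (left, bars) and in bands of UMIs per cell (right, points). The sIL-2 share is the highest in each band, and the shares at the right end are 8.95%, 1.74% and 0%.

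The members carried T cell markers. All 12 genes of the T cell identity list were measured, none differed past the 1.41-fold limit used for all genes, and their median log2 ratios were 0.14, 0.10 and 0.29. Cd8a, a chain of the CD8 coreceptor, was at 425, 333 and 322 CPM in members against 361, 313 and 229 CPM in other cells. Markers of other cell types were low. The 15 myeloid genes summed to 77.4, 47.8 and 13.8 CPM in members and 34.4, 33.4 and 28.3 CPM in other cells. In sIL-2 members the neutrophil gene S100a9 reached 14.2 CPM and the chemokine gene Cxcl2 30.6 CPM, while the most abundant myeloid gene over all cells, Cd68, was at 8.88, 5.31 and 6.74 CPM, the macrophage gene Csf1r was at 0.308, 0.272 and 0.177 CPM, and 1, 1 and 4 of the genes were at 0. The 6 B cell genes summed to at most 2.66 CPM in members, with 4 of them at 0 in each library. The 8 melanoma genes summed to at most 6.40 CPM, with Dct the most abundant over all cells and Mlana, a melanosome protein gene, at 2.07, 2.18 and 0.532 CPM in members, and with 1, 2 and 3 at 0. The 5 erythroid genes, led by Hbb-bs, summed to 1.23 CPM in sIL-2 members against 83.6 CPM in other sIL-2 cells, and were all at 0 in the members of the other libraries. The 7 dendritic cell genes summed to 36.4, 29.8 and 33.7 CPM in members, led by Zbtb46, with 4, 3 and 5 at 0. The 7 fibroblast and endothelial genes summed to 43.8, 31.3 and 35.98 CPM, nearly all from Pecam1, with 3, 5 and 5 at 0. Cells in which 2 or more myeloid, B cell, melanoma or erythroid genes had UMIs were 3.25%, 2.21% and 2.12% of members and 5.17%, 2.50% and 3.61% of other cells. Free RNA in the droplets and admixed cells cannot be told apart at these levels. Among kept cells, 25 barcodes were shared by sIL-2 with IL-2/21-Trikine, 17 by sIL-2 + IL-21 with sIL-2 alone, and 30 by IL-2/21-Trikine with sIL-2 + IL-21, and no barcode was shared among members.

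For all genes, UMIs were summed over members and over other cells of each library. A gene was called past the fold when its log2 ratio, with 1 CPM added to each side, was at least 0.5 (1.41-fold) in the same direction in each of the 3 libraries. Of 7353 genes at 10 CPM or more over all cells, 304 were higher in members, which is 4.13% of the genes measured. A further 432 genes, or 5.88%, were lower. Without cycling cells, those with 2 or more UMIs of the G2 and mitosis list, 142 genes were higher and 97 lower, and without the cells carrying foreign markers 300 were higher and 436 lower. The median log2 ratio of all genes was -0.06 in sIL-2, -0.04 in IL-2/21-Trikine and -0.05 in sIL-2 + IL-21. Since the score made this contrast, the counts of list genes that follow are set beside these shares and nothing is read from them.

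Genes that p53 induces were higher together with Cdkn1a. Of 30 p53 targets outside the score, 21 reached 10 CPM, and 15 of the 21 were higher in members past the fold and none lower. Their median log2 ratios were 0.81, 0.96 and 1.12. Phlda3, an inhibitor of AKT signaling, was at 52.2, 61.4 and 80.1 CPM in members against 15.03, 11.02 and 11.7 CPM in other cells. Zmat3, an RNA-binding protein gene, was at 64.6, 55.4 and 68.95 CPM in members against 24.3, 17.8 and 20.4 CPM in other cells. Mdm2, whose product degrades p53, was at 102, 116 and 166 CPM in members against 57.6, 46.7 and 62.3 CPM in other cells. For each of these genes members were above other cells in every library. The proapoptotic genes Pmaip1 (Noxa), Bbc3 (Puma) and Bax were past the fold as well, with log2 ratios of 1.17, 1.64 and 1.71 for Pmaip1 and 0.54, 0.82 and 0.70 for Bax. The death receptor gene Fas was at 80.9, 101 and 97.3 CPM in members against 38.2, 47.3 and 31.6 CPM in other cells. Ccng1, Btg2, Aen, Ei24, Plk3, Polk, Foxo3 and Dyrk3 completed the higher genes. Not every target followed, as Sesn1, a stress-inducible regulator of mTORC1, was at 36.9, 34.03 and 24.6 CPM in members against 37.2, 34.5 and 26.5 CPM in other cells, and Ddb2, a DNA repair gene, had log2 ratios of -0.23, -0.26 and -0.32. The mean of the list's medians over libraries was 0.96, and it was 0.80 when cycling cells were left out and 0.92 when other cells were weighted to the depth of members. It depended on the score, at 0.46 without Cdkn1a, 0.46 with Tnfsf8 alone and 0.03 with Nr4a1 and Egr3 alone.

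Cell cycle genes made up the lists with the most lower genes. All 20 genes of G2 and mitosis and 18 of 20 genes of S phase were lower past the fold in members. The median log2 ratios were -1.66, -1.28 and -1.48 for G2 and mitosis and -1.37, -0.99 and -1.30 for S phase. Ccnb2, a cyclin of mitotic entry, was at 13.5, 23.8 and 33.7 CPM in members against 65.7, 77.5 and 117 CPM in other cells. Cdc20, an activator of the anaphase-promoting complex, was at 9.72, 9.66 and 10.99 CPM in members against 33.2, 37.7 and 51.4 CPM in other cells. Birc5 (survivin), a subunit of the chromosomal passenger complex, was at 30.6, 59.9 and 77.1 CPM in members against 123, 164 and 229 CPM in other cells. Members were below other cells in every library for each of these genes. With cycling cells left out, and so with fewer of these UMIs by construction, the mean of the medians over libraries went from -1.47 to -0.08 for G2 and mitosis and from -1.22 to -0.50 for S phase. With other cells weighted to the members' depth these means were -0.88 and -0.78. Ccnb1, Cenpf, Hmmr and the histone gene H2ac8 were also among the 10 lowest genes, with log2 ratios of -1.77, -1.45 and -1.54 for Hmmr and -1.92, -1.56 and -1.76 for H2ac8. Dscam, an adhesion molecule gene outside the cell cycle, was at 2.51, 3.13 and 15.8 CPM in members against 41.2, 30.9 and 48.5 CPM in other cells. Cells with at least 2 UMIs of the G2 and mitosis list, here called cycling cells as a working name, were 33.4%, 33.6% and 36.7% of members and 54.95%, 57.9% and 74.0% of other cells. These shares were read at unequal depth and without a background share for free RNA, so they do not give the number of dividing cells. Of 14 measured CDK inhibitors and G1 regulators, Cdkn2a (p16 and p19ARF) and Ccnd2 (cyclin D2) were higher, and Ccne1, Ccne2, Cdk2, Cdk4 and Rbl1 were lower. Cdkn2a was at 148, 41.1 and 122 CPM in members against 73.9, 28.3 and 71.01 CPM in other cells. Cdkn1b, which encodes p27, the closest relative of p21 in T cells, was at 104, 72.4 and 77.1 CPM in members against 110.3, 87.6 and 70.2 CPM in other cells and did not pass the fold.

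The relatives of Nr4a1 and Egr3 and other genes of antigen signaling were higher in members. Of 24 such genes 23 were measured, with 19 higher past the fold and none lower, and with median log2 ratios of 0.95, 1.001 and 1.27. The mean of these medians was 1.07, and it was 0.59 with Cdkn1a and Trp53inp1 alone as the score. Nr4a2 was at 949, 796 and 859 CPM in members against 491, 389 and 382 CPM in other cells. Nr4a3 was at 523, 483 and 494 CPM in members against 236, 170.4 and 170.2 CPM in other cells. Egr2 was at 39.4, 53.2 and 55.8 CPM in members against 13.1, 12.2 and 8.41 CPM in other cells. These relatives of the score genes were thus higher in members of all 3 libraries, and what induced them was not tested. Egr1, a further EGR factor, was at 159, 171 and 267 CPM in members against 47.3, 39.7 and 67.3 CPM in other cells. Nfkbid, a nuclear regulator of NF-kB, had log2 ratios of 1.52, 1.55 and 1.84, and Tagap, a GTPase-activating protein gene of activated T cells, had 1.13, 1.24 and 1.67. The activation marker Cd69 was at 705, 943 and 1138 CPM in members against 358, 399 and 376 CPM in other cells. The costimulatory receptor gene Tnfrsf9 (4-1BB) was at 1375, 1139 and 1092 CPM in members against 864, 729 and 702 CPM in other cells. Tnfrsf4 (OX40), a receptor of the same family, was at 182, 239 and 189 CPM in members against 153, 189.6 and 202 CPM in other cells and did not pass the fold, and neither did Rgs16, Dusp4 or Spry2.

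Immediate early genes had the same direction. Of 19 measured genes of the AP-1, immediate early and dissociation list, 13 were higher and none lower past the fold, with median log2 ratios of 0.74, 0.89 and 0.90. Atf3, a stress-inducible transcription factor gene, was at 205, 239.9 and 332 CPM in members against 60.7, 73.3 and 81.95 CPM in other cells. Fos, a subunit of AP-1, was at 213, 310.1 and 473 CPM in members against 76.3, 87.4 and 107 CPM in other cells. Zfp36, whose product destabilizes cytokine mRNAs, was at 174, 133 and 139 CPM in members against 68.7, 46.9 and 43.3 CPM in other cells. These genes can also be induced when tissue is dissociated, and the part of dissociation was not tested. The mean of the medians over libraries was 0.84, and it was 0.55 without cycling cells. The heat shock genes of the list did not pass the fold, with Dnajb1 at 50.9, 47.4 and 45.6 CPM in members against 52.3, 48.6 and 50.9 CPM in other cells, and with log2 ratios of -0.59, 0.20 and -2.13 for Hspa1a. Kdm6b, a histone H3K27 demethylase gene, and Gadd45b, a stress-inducible gene, were among the 15 highest genes, with log2 ratios of 1.37, 1.48 and 1.74 and of 1.38, 1.36 and 1.58.

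The chemokine genes Ccl4 and Ccl3 ranked first and second among genes outside the score at 20 CPM or more by their smallest log2 ratio. Of 11 measured cytokines and chemokines, 10 were higher in members past the fold and none lower, with median log2 ratios of 1.24, 1.12 and 1.80. The mean of these medians was 1.39, and it was 0.80 without cycling cells and 0.54 with Cdkn1a and Trp53inp1 alone as the score. Ccl4, a chemokine gene, was at 6797, 8699 and 10947 CPM in members against 1894, 1957 and 1579.6 CPM in other cells. Ifng, the effector cytokine gene, was at 1676, 1533 and 2137 CPM in members against 707, 579 and 615 CPM in other cells. Csf2 (GM-CSF), a myeloid growth factor gene, was at 1258, 875 and 1549 CPM in members against 449.8, 318 and 588 CPM in other cells. Il2 differed strongly between the members of the libraries, at 125, 56.8 and 203 CPM, whereas other cells held 18.1, 18.9 and 17.1 CPM. Ccl3, a further chemokine gene, had log2 ratios of 1.78, 1.83 and 2.46. Spp1 (osteopontin) went the other way without passing the fold, at 372, 241 and 444 CPM in members against 693, 285 and 715 CPM in other cells.

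Among the relatives of Tnfsf8, 6 of 11 measured TNF superfamily ligands were higher past the fold and none lower, namely Tnf, Lta, Tnfsf4 (OX40 ligand), Tnfsf9 (4-1BB ligand), Tnfsf14 (LIGHT) and Cd40lg (CD40 ligand). The list's median log2 ratios were 1.095, 0.74 and 0.61. Their mean was 0.82, and it was 0.35 with Cdkn1a and Trp53inp1 alone as the score. Tnf was at 90.5, 93.1 and 182 CPM in members against 27.3, 24.4 and 25.7 CPM in other cells. Cd40lg, better known from CD4 T cells, was at 59.7, 71.6 and 76.04 CPM in members against 16.8, 17.2 and 11.9 CPM in other cells, and the 6 CD4 and regulatory T cell genes, Cd40lg included, summed to 84.4, 93.8 and 89.9 CPM in members. Cd40lg thus made up most of that sum. Tnfsf4 was at 65.6, 66.7 and 69.7 CPM in members against 24.7, 22.4 and 23.3 CPM in other cells, and Tnfsf9 had log2 ratios of 1.47, 1.26 and 1.25. The mean log2 ratio of Tnfsf4 turned to -0.44 with Nr4a1 and Egr3 alone as the score. Of 7 measured receptors, Tnfrsf9 and Fas were higher and none lower. Tnfrsf8, which encodes CD30, the receptor of Tnfsf8, was at 0.616, 0.544 and 0.886 CPM in members against 0.495, 0.406 and 2.15 CPM in other cells, so that nearly no receptor RNA was measured beside that of the ligand.

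Genes downstream of IL-2 were higher in part. Of 13 measured genes of IL-2 and STAT5 signaling, Cish, Il2ra, Pim1, Bcl2l1, Stat5a, Ccnd2 and Gadd45b were higher and none lower. Il2ra, the alpha chain of the IL-2 receptor, was at 622, 543 and 528 CPM in members against 345, 271 and 306 CPM in other cells. Il2rb, the signaling beta chain, was at 520.3, 336 and 422 CPM in members against 493, 327 and 403 CPM in other cells. The chain that raises affinity was thus higher in members while the beta chain was not past the fold. Of 9 measured genes of IL-21 and STAT3 signaling, Il21r, Bcl6 and Pim3 were higher and none lower, with Il21r, the IL-21 receptor gene, at 246, 220.1 and 214 CPM in members against 137, 122 and 106 CPM in other cells. In the BCL2 family 6 of 11 genes were higher, the antiapoptotic Bcl2l1 (BCL-XL), Bcl2a1b and Bcl2a1d beside the proapoptotic Bax, Bbc3 and Pmaip1. Bcl2l1 was at 288, 233 and 234 CPM in members against 135, 108 and 125 CPM in other cells, and Bcl2 itself at 311, 285 and 251 CPM in members against 297, 294 and 220.3 CPM in other cells. Bcl2a1b and Bcl2a1d are near-identical copies, so how reads were divided between them is uncertain.

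Of 11 interferon-stimulated genes 8 were higher in members past the fold and none lower, with median log2 ratios of 0.73, 1.35 and 1.64. Isg15, a ubiquitin-like modifier gene, was at 242, 291 and 141 CPM in members against 121, 114 and 42.3 CPM in other cells. Rsad2 (viperin), an antiviral enzyme gene, was at 41.1, 47.1 and 17.02 CPM in members against 20.2, 10.1 and 3.24 CPM in other cells. The mean of the list's medians over libraries was 1.24, and it was 0.44 when cycling cells were left out and 0.69 when other cells were weighted to the members' depth.

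Part of the granzyme genes and perforin were lower in members. Of 11 genes, Gzmc, Gzmd, Gzme, Gzmf, Gzmg and Prf1 were lower past the fold, and Serpinb9, which encodes an inhibitor of granzyme B, was higher. The median log2 ratios were -1.34, -0.85 and -1.41, with a mean of -1.20 that was -0.52 without cycling cells, -0.77 with other cells weighted to the members' depth and -0.45 with Cdkn1a and Trp53inp1 alone as the score. Gzmc was at 694, 710.3 and 1036 CPM in members against 2755, 1846 and 4811 CPM in other cells. Gzmf was at 133, 44.9 and 229 CPM in members against 745, 237 and 1285 CPM in other cells. Prf1, the perforin gene, was at 88.6, 46.3 and 104 CPM in members against 199, 90.3 and 278 CPM in other cells. In each library these genes were higher in other cells. Gzmg was at 4.71, 0.544 and 0.709 CPM in members against 43.6, 9.85 and 49.2 CPM in other cells, with only 4 UMIs behind it in the members of IL-2/21-Trikine and of sIL-2 + IL-21. The granzyme gene Gzmb, whose product activates caspases, was at 2616, 2954 and 3463 CPM in members against 3639.9, 2766 and 5382 CPM in other cells and did not pass the fold. Gzma and Gzmk, further granzyme genes, and Nkg7, a cytotoxic granule gene, did not either, with log2 ratios of -1.77, -0.92 and 0.68 for Gzmk. Granzymes C to G are close relatives, and the assignment of their reads is uncertain. Fcer1g, an adaptor gene shared by NK cells and some effector CD8 T cells, was at 33.1, 26.8 and 45.2 CPM in members against 207, 57.8 and 194 CPM in other cells. It was the only one of 8 NK cell genes to reach 10 CPM, and the list summed to 44.6, 42.7 and 59.6 CPM in members against 238, 75.1 and 214 CPM in other cells, with 2, 3 and 2 genes at 0 in members.

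Checkpoint genes went both ways. Of 12 measured, Cd160 and Btla were higher and Pdcd1 (PD-1), Entpd1 (CD39) and Cd244a (2B4) were lower past the fold. Pdcd1 was at 118, 59.6 and 95.2 CPM in members against 185, 104 and 175 CPM in other cells. Cd160, a receptor of HVEM, was at 314, 268 and 329.7 CPM in members against 203, 188 and 130.2 CPM in other cells. Havcr2 (TIM-3) was at 149, 80.03 and 160.4 CPM in members against 148, 57.4 and 145 CPM in other cells and did not pass the fold. The mean of the checkpoint list's medians was 0.10. It was -0.25 without cycling cells and -0.15 with other cells weighted to the members' depth. Of 12 measured quiescence factors, Bach2, Btg1 and Tob1 were higher and none lower, with Bach2, a repressor of effector genes, at 786, 623 and 580.0 CPM in members against 479.7, 432 and 257 CPM in other cells. The mean of that list's medians was 0.47, and it was 0.02 when cycling cells were left out. Of 8 measured stem-like genes only the chemokine gene Xcl1 was higher past the fold, while Tcf7, which encodes TCF1, was at 63.9, 71.3 and 51.4 CPM in members against 59.7, 59.4 and 20.6 CPM in other cells. For the stem-like list the mean of the medians was 0.18. It was -0.32 without cycling cells and -0.08 with other cells weighted to the members' depth. Among 12 anergy and feedback genes the adaptor gene Sla was higher and Nrgn and Sla2 were lower. Sqstm1, the autophagy adaptor p62, was the only one of 11 autophagy and lysosome genes past the fold, and Pvt1, a long noncoding RNA, was the only one of 5 nuclear-retained RNAs. None of 12 genes of ATF4 and the amino acid response and none of 15 of hypoxia and glycolysis passed the fold in either direction.

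**Figure D3:**
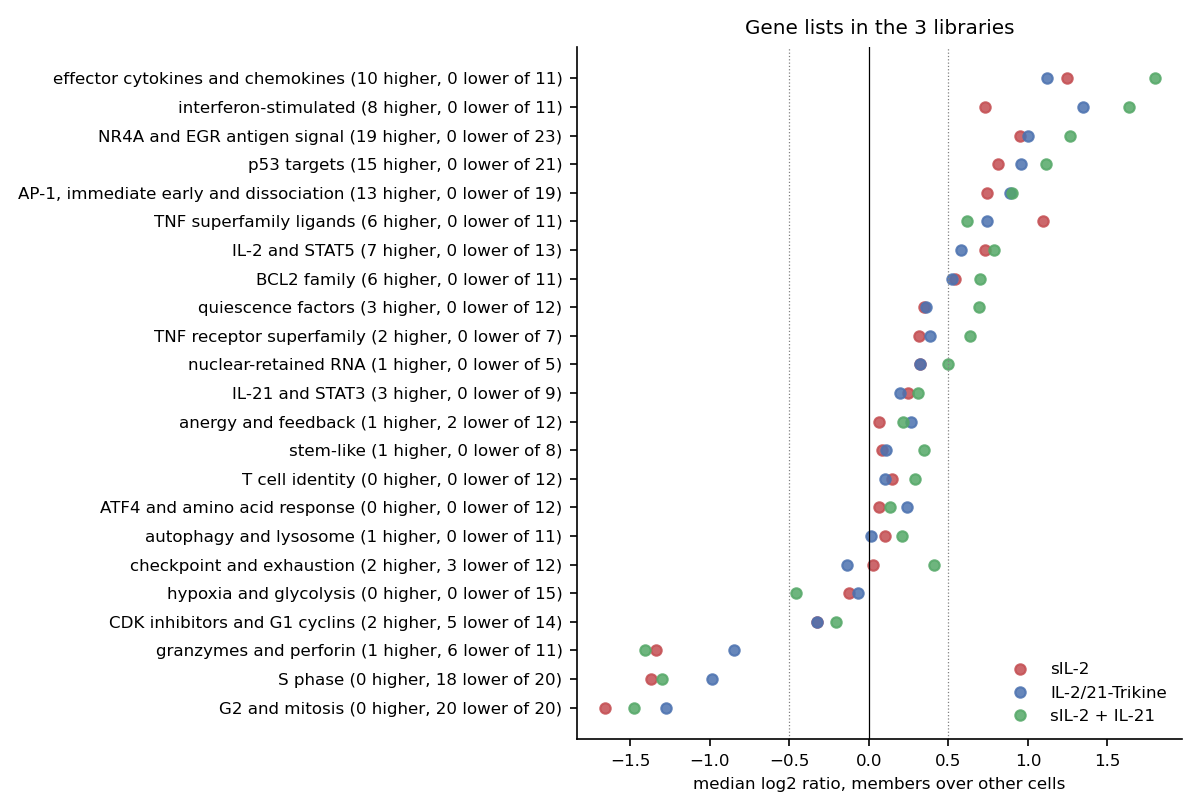
Median log2 ratio of members over other cells for each gene list with at least 3 measured genes, 1 point per library, with the number of genes higher and lower past the fold among those measured. Cytokines and chemokines lie at 1.12 to 1.80 and G2 and mitosis at -1.66 to -1.28.

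Along the 10 groups of the score, the sums of p53 targets and antigen signal genes were higher in each following group of each library. The summed CPM of p53 targets was 1306, 1225 and 1305 CPM in the lowest group of each library, 2740.3, 2624 and 3039 CPM in group 9 and 3668, 3278 and 3949 CPM in members. Antigen signal genes summed to 2995, 2994 and 3222 CPM, 8619, 7999 and 7903 CPM and 11119, 9456 and 10205 CPM in the same groups. Cytokines and chemokines summed to 4269, 3914 and 3686 CPM, 21318, 23539 and 27149 CPM and 27034, 25476 and 34152 CPM. The cells just below the members were thus already well above the lowest group for all 3 lists. Granzymes and perforin summed to 19627, 9824 and 22032 CPM in the lowest group and 8348, 6368 and 11016 CPM in members. G2 and mitosis genes summed to 2016, 1561 and 1941 CPM, 743, 883 and 1326 CPM and 429.9, 761 and 779 CPM in the lowest group, in group 9 and in members. Their course was uneven, as in IL-2/21-Trikine they were at 1561 CPM in group 1 and 2196 CPM in group 3, and in sIL-2 + IL-21 groups 2 to 6, at 2059 to 2225 CPM, lay above group 1.

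**Figure D4:**
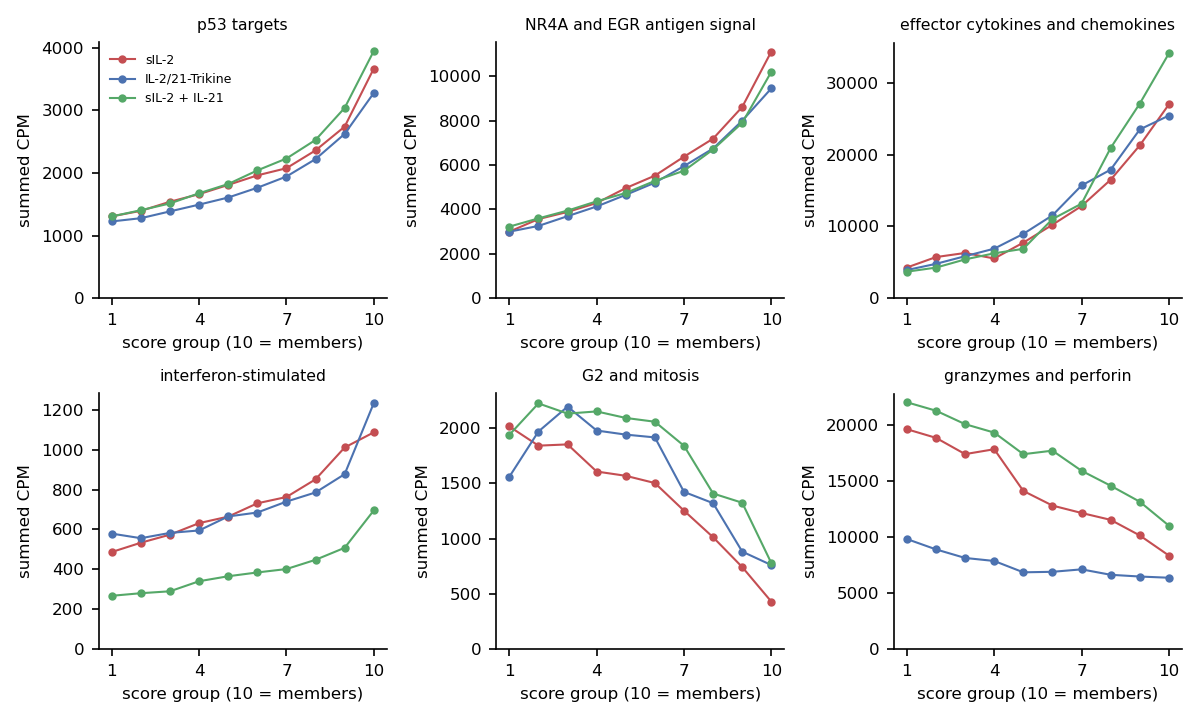
Summed CPM of 6 gene lists along 10 equal groups of all pooled cells ordered by score, where group 10 is the members, with 1 line per library. In each library the sums of p53 targets, antigen signal genes, cytokines and interferon-stimulated genes are higher in group 10 than in group 1, and those of mitotic genes and granzymes are lower.

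The members differed among themselves according to which score genes led. They were divided by whether Cdkn1a and Trp53inp1 together, Nr4a1 and Egr3 together, or Tnfsf8 gave the most score UMIs. The Cdkn1a class held 820 members in sIL-2, 283 in IL-2/21-Trikine and 335 in sIL-2 + IL-21, which was 51.2%, 41.7% and 59.1% of members. The Nr4a1 class held 399, 167 and 136 members, or 24.9%, 24.6% and 24.0%. The Tnfsf8 class held 347, 204 and 77 members, or 21.7%, 30.1% and 13.6%, and the rest were tied. Cdkn1a thus led more members than Nr4a1 or Tnfsf8 in each library. As a share of all kept cells, the Cdkn1a class was 10.9%, 2.46% and 3.55%, so that sIL-2 had 4.46 times the share of IL-2/21-Trikine (Katz interval 3.90 to 5.08) and 3.08 times that of sIL-2 + IL-21 (2.72 to 3.49). The Tnfsf8 class was 4.63%, 1.77% and 0.816%, with ratios of 2.62 (2.21 to 3.102) and 5.67 (4.44 to 7.25). The Nr4a1 class was 5.32%, 1.45% and 1.44%, with ratios of 3.67 (3.07 to 4.39) and 3.69 (3.05 to 4.48). The sIL-2 share was the highest for each of the 3 classes. The median UMIs per cell were 11387, 9661 and 8606 in the Cdkn1a class, 11619, 7358 and 7230 in the Nr4a1 class and 11768, 9594 and 8729 in the Tnfsf8 class.

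By their median, the p53 targets were above other cells in the Cdkn1a class and near them in the Nr4a1 class, whereas their summed CPM was above other cells in both. Their median log2 ratio over other cells was 1.07, 1.26 and 1.33 in the Cdkn1a class and -0.02, 0.11 and -0.13 in the Nr4a1 class. When Nr4a1 and Egr3 alone chose the members, the mean of the medians over libraries was 0.03, and with Cdkn1a and Trp53inp1 alone it was 1.08. The Tnfsf8 class was at 0.41, 0.60 and 0.70. Phlda3 was at 80.8, 106 and 117 CPM in the Cdkn1a class and at 14.9, 17.2 and 9.08 CPM in the Nr4a1 class. Mdm2 was at 141, 178 and 217 CPM in the Cdkn1a class and at 55.5, 59.3 and 71.8 CPM in the Nr4a1 class. The summed CPM of the list was 4051, 3830.2 and 4147 CPM in the Cdkn1a class, 3298, 3008 and 3444 CPM in the Nr4a1 class and 2027, 1683 and 1816 CPM in other cells, with Btg2, an antiproliferative gene, as its most abundant member. Antigen signal genes had the opposite order, with median log2 ratios of 1.26, 1.45 and 1.81 in the Nr4a1 class and 0.75, 0.76 and 0.92 in the Cdkn1a class, where they were still above other cells. Nr4a2, whose UMIs were not part of the score, was at 1291, 1233 and 1277 CPM in the Nr4a1 class and at 817, 645 and 723 CPM in the Cdkn1a class.

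By their median, cytokine genes were higher in the Nr4a1 and Tnfsf8 classes than in the Cdkn1a class. Their median log2 ratio was 1.93, 1.51 and 2.91 in the Nr4a1 class, 1.44, 1.49 and 1.91 in the Tnfsf8 class, and 0.62, 0.55 and 1.14 in the Cdkn1a class. Il2 was at 17.1, 16.1 and 43.6 CPM in the Cdkn1a class, at 219, 109 and 461 CPM in the Nr4a1 class, and at 255, 76.96 and 580.1 CPM in the Tnfsf8 class. In sIL-2 and IL-2/21-Trikine the Cdkn1a class was thus near or below the other cells for Il2. Ifng was at 892, 1141 and 1135 CPM in the Cdkn1a class and at 2714, 2068 and 4846 CPM in the Nr4a1 class. Csf2 was at 1116, 914 and 1294 CPM in the Cdkn1a class and at 1714, 843 and 2000.4 CPM in the Nr4a1 class. In the Tnfsf8 class Csf2 was at 1080, 898 and 1944 CPM. For Csf2 the Cdkn1a class was thus the highest of the 3 classes in IL-2/21-Trikine, and it was above the Tnfsf8 class in sIL-2. G2 and mitosis genes were below other cells in all 3 classes, with medians of -1.68, -1.14 and -1.19 in the Cdkn1a class, -1.08, -1.01 and -1.68 in the Tnfsf8 class and -2.78, -1.98 and -2.89 in the Nr4a1 class. Interferon-stimulated genes were above other cells in each class, at 0.62, 1.37 and 1.47 in the Cdkn1a class, 0.72, 1.26 and 1.41 in the Nr4a1 class and 0.57, 1.01 and 1.58 in the Tnfsf8 class. The mean of their medians over libraries was 0.98 when Cdkn1a and Trp53inp1 alone chose the members, 0.64 with Nr4a1 and Egr3 alone and 0.67 with Tnfsf8 alone. TNF superfamily ligands had medians of 0.36, 0.36 and 0.65 in the Cdkn1a class, 0.77, 0.80 and 0.93 in the Nr4a1 class and 1.11, 0.87 and 1.18 in the Tnfsf8 class. The ligand gene Tnfsf4 changed sides with the score, since its mean log2 ratio was -0.44 when Nr4a1 and Egr3 alone chose the members.

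**Figure D5:**
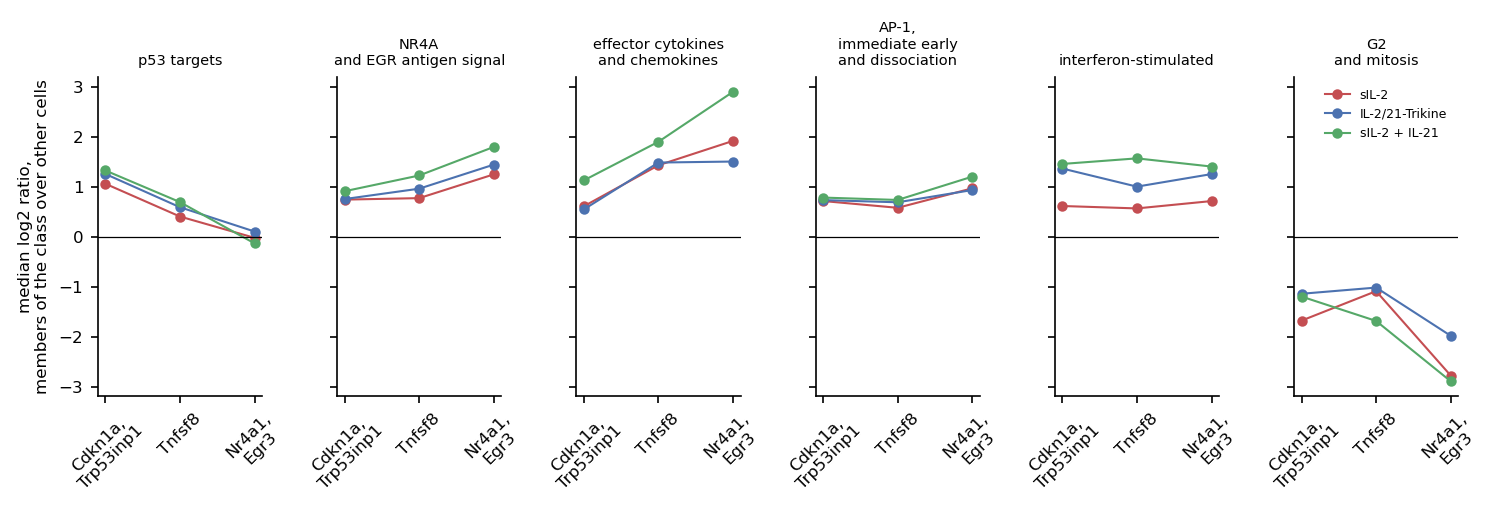
Median log2 ratio over other cells for 6 gene lists in the 3 classes of members, named by the score genes that gave most UMIs, with 1 line per library. The p53 targets lie at 1.07 to 1.33 in the Cdkn1a class and between -0.13 and 0.11 in the Nr4a1 class, and cytokines have the opposite order.

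Members were also compared between libraries, with genes past a log2 ratio of 0.5 counted in each pair. Members of sIL-2 had 398 genes above and 294 below those of IL-2/21-Trikine, which is 5.41% and 4% of 7353. Against sIL-2 + IL-21 they had 257 above and 253 below, or 3.5% and 3.44%. Members of IL-2/21-Trikine had 174 genes above and 248 below those of sIL-2 + IL-21, or 2.37% and 3.37%. The 3 pairs share libraries and are given side by side. Part of these genes differed between the other cells too, as 194 of the 398 and 93 of the 294 were past the same limit in the other cells of that pair.

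Some cytotoxic genes had the same order of libraries in members as in other cells, and others did not. For the 11 genes of granzymes and perforin, the median log2 ratio was 1.27 in members and 1.65 in other cells for sIL-2 over IL-2/21-Trikine, and -0.23 and -1.61 for IL-2/21-Trikine over sIL-2 + IL-21. Gzmb, given above, was lowest in sIL-2 among members and in IL-2/21-Trikine among other cells. Gzma, a granzyme gene, was at 2557, 630.3 and 4142 CPM in members and at 4222, 1119.8 and 4753 CPM in other cells. Klra5, a Ly49 receptor gene, was at 84.1, 19.3 and 75.2 CPM in members and 155, 41.1 and 177 CPM in other cells. Both were lowest in IL-2/21-Trikine, in members as in other cells. Gzmf had the same order of libraries as Gzma. For Klra5, sIL-2 was above sIL-2 + IL-21 in members and below it in other cells. Gzmd and Gzme had another pattern, as Gzmd was at 94.9 CPM in sIL-2 members and 39.7 CPM in sIL-2 + IL-21 members, while other cells held 306 and 343 CPM. Serpinb1a, a protease inhibitor gene, was at 55.5 CPM in sIL-2 members and 15.4 CPM in IL-2/21-Trikine members, and Cdkn2a, given above, was lowest in the latter too.

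Interferon-stimulated genes were lowest in the members of sIL-2 + IL-21. Of 11 genes, 8 were past the limit in sIL-2 compared with it and 9 in IL-2/21-Trikine, with medians of 0.78 and 1.04 in members and 1.39 and 1.09 in other cells. Ifit3 was at 60.5, 63.6 and 26.9 CPM in members against 36.2, 23.8 and 5.83 CPM in other cells. Usp18, which limits interferon signaling, was at 51.5, 43.7 and 16.8 CPM in members against 34.2, 23.6 and 9.25 CPM in other cells. Ifi27l2a and Ifi214, interferon-inducible genes outside the list, were at 1091 and 129 CPM in IL-2/21-Trikine members and at 517 and 60.1 CPM in sIL-2 + IL-21 members. Nrn1 (neuritin) and A330040F15Rik were the remaining genes among the 5 highest of that pair. Both were above sIL-2 + IL-21 in other cells too, by 0.89 and 1.30 on the log2 scale.

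Cytokine genes were lower in IL-2/21-Trikine members than in sIL-2 + IL-21 members for 7 of 11 genes, with a median log2 ratio of -0.76 in members and 0.04 in other cells. For Il2 the log2 ratio of this pair was -1.82 with a 95% margin of 0.16 in members, and 0.14 in other cells. For Il3, a growth factor gene, it was -2.14 with a margin of 0.19 in members and -1.04 in other cells. Both margins treat UMIs as independent and leave out differences between cells, so they can be too narrow. In these 2 libraries Il2 was at 16.1 and 43.6 CPM in the Cdkn1a class, at 109 and 461 CPM in the Nr4a1 class and at 76.96 and 580.1 CPM in the Tnfsf8 class. The shares of the classes among members differed as well, and their part in the Il2 difference was not tested. The metallothionein genes Mt1 and Mt2 were at 65.9 and 44.2 CPM in members of sIL-2 and at 186 and 109 CPM in those of sIL-2 + IL-21. In other cells they were at 234 and 131 CPM and at 1041 and 552 CPM.

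Cell cycle genes were mostly, but not all, lower in the members of sIL-2 than in members of either other library. Of 20 genes of S phase, 16 were lower past the limit than in IL-2/21-Trikine members and 11 lower than in sIL-2 + IL-21 members. Their medians were -0.80 and -0.59 in members and -0.59 and -0.67 in other cells. Mcm6, a replication gene, went the other way, at 38.2, 35.4 and 33.5 CPM in members. Of 20 genes of G2 and mitosis, 15 were lower than in IL-2/21-Trikine members and 17 lower than in sIL-2 + IL-21 members, with medians of -0.79 and -0.80 in members and -0.31 and -0.51 in other cells. Pclaf, a PCNA-binding protein gene, was at 61.4, 150.4 and 148 CPM in members and 237, 362 and 464 CPM in other cells. Rrm2, a subunit of ribonucleotide reductase, was at 19.6 CPM in members of sIL-2 and 53.5 CPM in those of IL-2/21-Trikine, and Nusap1, a spindle protein gene, at 21.6 and 54.0 CPM. Hmgn1, a nucleosome-binding protein gene, was at 23.1 and 58.4 CPM in the same members. For p53 targets the medians in members were -0.09 for sIL-2 over IL-2/21-Trikine, -0.24 for sIL-2 relative to sIL-2 + IL-21, and -0.23 for IL-2/21-Trikine over sIL-2 + IL-21. Of 21 targets, 1 was higher and 2 lower past the limit in the first pair, 1 higher and 4 lower in the second, and none higher and 3 lower in the third. In other cells the medians were 0.26, 0.17 and -0.14. Antigen signal genes had a median of 0.13 in each of the 2 pairs with sIL-2. Cd74, the invariant chain gene, was at 14.1 CPM in sIL-2 members and 54.4 CPM in IL-2/21-Trikine members, and at 15.7 and 55.1 CPM in the other cells of these libraries.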

How the data were processed

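Single cells were profiled by 10x Genomics 3' gene expression from Thy1.1+CD8+ cells of B16F10 tumors. The deposited values are whole-number UMI counts of 33696 genes in each cell, which the authors did not normalize and which were made with Cell Ranger 9.0.0 per the file headers. The study's methods give a GRCm39 reference with intronic reads counted, whereas the submitters' processing notes name mm10, so no gene coordinates were taken from the files. Cells with 2000 to 120000 UMIs and at most 20% mitochondrial UMIs were kept, 28452 of 31026, with 129886211, 165051207 and 167689133 UMIs for sIL-2, then IL-2/21-Trikine, then sIL-2 + IL-21. No doublet caller was run.

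Summed UMI counts were scaled to CPM of genes outside the score. A gene was kept at 10 CPM over all pooled cells. No test was run. Intervals are exact binomial for shares and Katz for ratios of shares, at 95%, and cover counting error only. The margins of Il2 and Il3 are normal approximations on the log scale from the UMI counts of the 2 libraries, without the added 1 CPM. Named genes were the score genes, genes of the 31 lists, the 15 highest and 10 lowest genes by the log2 ratio closest to 0 of the 3 libraries at 20 CPM or more, and, between the members of 2 libraries, the 5 at either end of the log2 ratio at 50 CPM or more, except 1 gene that is not reported here. Score genes and T cell receptor and immunoglobulin segments were left out of the ranked genes. The members and lists were chosen with earlier results of these data known. Alternatives covered the limits on cells, the score, the pool of cells, scaling, added CPM and the fold. The steps were checked on simulated data with a distinct high-score group, unlike the continuous scores of these cells. Sequences came from the RefSeq promoter table (GRCm38.p6). Python 3.11.15, numpy 2.4.6, scipy 1.17.1, pandas 2.3.3 and matplotlib 3.10.9 were used.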

Additional observations from a re-analysis of the deposited data

Results flagged for a closer look

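Of 5520 genes at 20 CPM or more, 2 had a log2 ratio of members over other cells of at least 0.5 in 1 library and of -0.5 or less in another, and the difference was not tested, since each treatment had 1 library. Basp1, a membrane-bound signaling protein gene, had log2 ratios of 0.23 in sIL-2, 0.57 in IL-2/21-Trikine and -0.73 in sIL-2 + IL-21, a spread of 1.29, with 64 UMIs in the sIL-2 + IL-21 members. Serpinb1a had 0.05, -0.51 and 0.72 in the same libraries, a spread of 1.23, with 1263, 113 and 242 UMIs in members.

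Cells of 500 to 2000 UMIs were outside the pool from which members were taken. Of these, 74 of 266 cells in sIL-2 (27.8%), 199 of 1775 in IL-2/21-Trikine (11.2%) and 42 of 364 in sIL-2 + IL-21 (11.5%) had a score at or above that of the lowest member. The order of the libraries with sIL-2 highest was the same as in the kept cells, at a depth where a score rests on few UMIs.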

How the results depend on the processing

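The share of members was higher in sIL-2 than in either other library under all 18 alternatives that allow the comparison, with ratios of 1.92 to 4.51 over IL-2/21-Trikine and 2.48 to 4.30 over sIL-2 + IL-21. Taking the highest 10% within each library fixes the shares and gives no ratio. Values outside the counting interval were as follows, with the ratio over IL-2/21-Trikine named before that over sIL-2 + IL-21 where both moved. The highest 5% of cells gave 4.51 and 4.30 and the highest 20% gave 2.52 and 2.84. Each score gene divided by its mean gave 2.80 and 3.02, and the score without Cdkn1a 2.80 and 4.05. Over IL-2/21-Trikine alone, a limit of 500 UMIs gave 3.31, thinning to 2000 UMIs 3.29, and the score without Nr4a1 3.15. Over sIL-2 + IL-21 alone, a limit of 5000 UMIs gave 3.89, the score without Tnfsf8 2.88, and leaving out cycling cells 2.48. Scores chosen after seeing the data gave 2.42 and 2.90 with Nr4a1 and Egr3 alone, 2.48 over sIL-2 + IL-21 with Cdkn1a and Trp53inp1 alone, and 1.92 over IL-2/21-Trikine with Tnfsf8 alone.

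The counts of 304 higher and 432 lower genes were 142 and 97 without cycling cells, of which 126 and 39 were shared with the original genes. They were 177 and 130 at 50 CPM or more, where fewer genes were measured, and 48 and 108 at a log2 ratio of 1. Lower genes alone moved to 271 with thinned scores, to 238 with other cells weighted to the members' depth, and to 662 at 1 CPM or more. Cdkn1a and Trp53inp1 alone gave 149 and 165 genes, and Tnfsf8 alone 147 and 238. Without each library in turn, 314 to 409 genes were higher and 484 to 550 lower. Without cycling cells, the mean log2 ratios of Cdc20, Ccnb2 and Ccnb1 turned to 0.051, 0.33 and 0.080, as cells with UMIs of such genes had been left out, and that of Tnfsf4 was -0.44 with Nr4a1 and Egr3 alone. Other causes were not tested. Of 621 list medians under alternatives, 97 moved by more than the spread of the libraries and none that passed the fold changed sign. Smaller medians did change sign, such as those of the stem-like and the checkpoint lists without cycling cells. An upper limit of 40000 UMIs, for possible doublets and chosen after seeing the data, gave 289 and 396 genes. No paired analysis was possible because each treatment had 1 library and the result comes from no test. Classes of 77 to 820 members rest on fewer cells than the whole, and low genes such as Gzmg on few UMIs.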
